A study of Mus musculus with 12 samples.

Results

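Expression of 9 genes of leukocyte and endothelial cell adhesion was measured in mouse liver 2 h after LPS, a cell wall lipid of Gram-negative bacteria sensed by toll-like receptor 4, and in cultured peritoneal macrophages treated with LPS. They were the selectins Sele and Selp, the immunoglobulin-family adhesion molecules Icam1, Icam2, Vcam1 and Pecam1, the junction proteins Cdh5 and Esam, and the sialomucin Cd34. Each was found by its Ensembl gene ID, which gave 9 rows among 49585 gene IDs in the liver tables and 55401 in the macrophage tables. Poly(A) RNA of C57BL/6 mice was sequenced in 12 libraries, 3 in each of 4 groups. The liver groups were liver 2 h after LPS and untreated liver, whose titles call it WT. The macrophage groups had received a lentivirus with a hairpin that targets the lncRNA Gm26917 (shGm26917), or with a control hairpin (shNC), for 72 h, and both had then received LPS for 2 h, so no macrophage library was free of LPS. The sources used here do not give the dose and route of LPS, the sex and age of the mice, or whether replicates came from separate animals, so p-values measure only the spread between these libraries, which may be technical.

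Leukocytes leave the blood in steps. Selectins on activated endothelium bind sugars on leukocytes and let them roll, and Icam1 and Vcam1 then bind leukocyte integrins and hold them. Pecam1, Cdh5 and Esam sit at the contacts between endothelial cells, where they seal the layer and take part in the passage of leukocytes. Liver sinusoids are lined by a specialised, fenestrated endothelium, and in liver Icam1 is also made by hepatocytes and macrophages, while Selp and Pecam1 are also made by platelets. Transcription of Sele, Icam1 and Vcam1 in endothelium is a textbook response to TNF, IL-1 and LPS through NF-kB.

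The promoters of Sele and Icam1, which rose with LPS in liver, are shown because both hold a near-palindromic NF-kB-like core, and that of Selp is shown because it rose without such a match in the same window. The sequences are the 250 bases before the RefSeq start, from RefSeq on GRCm38.p6, for Sele chr1:164047984-164048233, for Icam1 chr9:21015690-21015939 and for Selp chr1:164115014-164115263, all on the plus strand and written 5′ to 3′. Capitals mark matches to the loose core GGANNNTCC.
Sele: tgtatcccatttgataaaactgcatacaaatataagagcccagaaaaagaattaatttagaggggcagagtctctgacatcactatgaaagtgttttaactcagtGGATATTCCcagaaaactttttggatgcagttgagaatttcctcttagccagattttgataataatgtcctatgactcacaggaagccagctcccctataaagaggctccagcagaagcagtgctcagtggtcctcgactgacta
Icam1: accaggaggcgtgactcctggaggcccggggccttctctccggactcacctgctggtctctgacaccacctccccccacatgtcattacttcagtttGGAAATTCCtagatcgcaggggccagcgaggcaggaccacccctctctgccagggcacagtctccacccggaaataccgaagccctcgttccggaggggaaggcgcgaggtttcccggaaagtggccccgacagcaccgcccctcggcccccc
Selp: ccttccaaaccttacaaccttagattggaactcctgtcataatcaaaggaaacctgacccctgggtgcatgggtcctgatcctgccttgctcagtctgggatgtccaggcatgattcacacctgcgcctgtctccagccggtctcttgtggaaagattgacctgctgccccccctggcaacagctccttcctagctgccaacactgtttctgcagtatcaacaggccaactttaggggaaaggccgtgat
Counting the base before the start as -1, the Sele match GGATATTCC began at -145 and the Icam1 match GGAAATTCC at -153. Sele also held TGACTCA at -73, a match to the AP-1 pattern TGANTCA, the ETS pattern CAGGAAG at -66, directly after it and without overlap, and the TATA box letters TATAAA at -49. Selp held TGATTCA, an AP-1 match, at -139. The Cd34 window held 1 ETS match, on the minus strand, and no other. RefSeq promoters were at hand for 4 of the 9 genes, and Icam2, Vcam1, Pecam1, Cdh5 and Esam had none. Both strands were searched, and the longer NF-kB consensus, which can overlap the loose core, was in none of the 4 windows. Of 32851 mouse promoters of this length, 7.27% held the loose core, 7.25% the NF-kB consensus, 12.4% the TATA box letters, 6.75% the AP-1 pattern, 10.8% the ETS pattern and 9.99% the GATA pattern AGATAA, which none of the 4 windows held. Matches of this kind describe letters and not bound sites.

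The liver libraries held 17322770 to 20913964 counts and the macrophage libraries 15605311 to 18062853, with a count in 17303 to 20423 genes per library. All 10 hepatocyte markers were detected in the livers, with summed levels of 64123 to 99295 CPM, read counts scaled to a common total in LPS livers and 85664 to 126992 CPM in untreated livers, against at most 0.469 CPM in any macrophage library. Levels are CPM on library sizes scaled by the trimmed mean of M values (TMM). That scaling matters here: without it, on library totals alone, the median over all genes moved by -0.43 in liver and 0.29 in macrophages on the log2 scale. In liver, LPS replicate 1 had the highest level of the 3 LPS libraries for all 9 adhesion genes. It also stood apart in Acta2, a smooth muscle and myofibroblast actin, at 35.5 CPM, against 0.721 and 3.92 CPM in the other LPS libraries and 1.27, 1.25 and 1.52 CPM in the untreated ones. In macrophages, shNC replicate 2 stood apart, with an endothelial marker sum of 414 CPM against 161 and 188 CPM in the other shNC libraries. For the 9 genes in liver, and for Icam1, Icam2 and Vcam1 in macrophages, calls and directions that change without either library are given with and without it.

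In liver, the leukocyte-capturing genes Sele, Selp, Icam1 and Vcam1 rose 13.7-fold or more, the junction genes Cdh5 and Esam rose about 2-fold, and Icam2, Pecam1 and Cd34 did not pass the test. Gene positions are those of GENCODE M21 on GRCm38, the assembly called mm10. Of the 9 genes, 6 were called higher with LPS and 0 lower, where called means an adjusted p under 0.05 in the quasi-likelihood F test of edgeR, adjusted by Benjamini-Hochberg over the 13869 genes tested. Over all genes tested, 45.3% were called, 23.3% higher and 22.1% lower. The median log2 fold change was 1.15 over the 9 genes, with Sele at its lower bound or as fitted, and -0.06 over all genes. All 9 passed the filter on low counts, Sele through its counts in LPS livers alone. With library totals alone, 4 were called higher and 1 lower, where all genes split into 14.0% higher and 38.3% lower (52.3% called). Without LPS replicate 1, 6 were called higher and 2 lower, where all genes split into 19.3% higher and 18.0% lower (37.3% called). Groups did not overlap for 6 of the 9 genes, each of them higher in LPS livers, where 57.8% of all genes tested did not overlap and 29.4% lay higher in LPS livers.

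**Figure D1:**
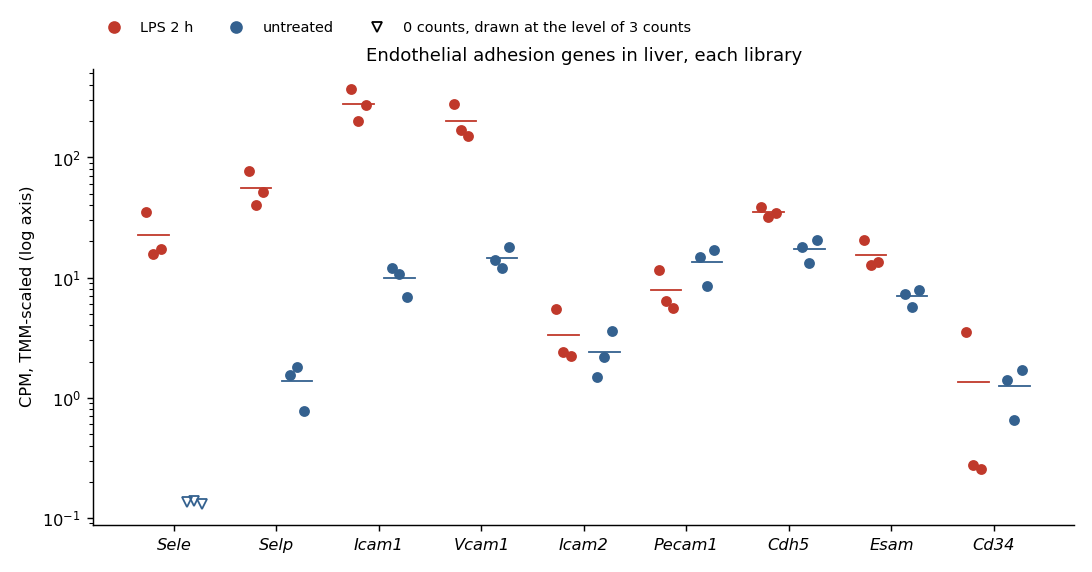
Level of the 9 adhesion genes in each liver library, in TMM-scaled CPM on a log axis. Points are libraries, lines are group means, and open triangles mark 0 counts drawn at the level of 3 counts. Sele, Selp, Icam1, Vcam1, Cdh5 and Esam have no LPS library within the range of the untreated ones, while Icam2, Pecam1 and Cd34 overlap.

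Sele encodes E-selectin, which most endothelium makes mainly after activation (chr1:164048234-164057677, plus strand, ENSMUSG00000026582). It had 557, 282 and 272 counts in LPS livers, or 34.9, 15.6 and 17.2 CPM, against 0 counts in each of the 3 untreated livers. A count of 0 allows up to 0.137, 0.139 and 0.130 CPM in those libraries, if 3 counts are taken as the limit, and this limit covers counting error only. Against 3 counts over the whole untreated group, 0.0451 CPM, Sele was at least 501-fold higher in LPS livers. The edgeR test (adjusted p = 6.23e-05) belongs to the fitted fold change and not to this bound. Sele entered that test through its counts in LPS livers alone, so a rise was the only direction it could show. The gene was thus read in every LPS library and in no untreated one.

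Selp encodes P-selectin, which endothelium and platelets store in granules and bring to the surface on activation (chr1:164115264-164150026, plus strand, ENSMUSG00000026580). It had 76.9, 39.9 and 51.5 CPM in LPS livers, against 1.55, 1.81 and 0.782 CPM in untreated livers. The lowest LPS library was far above the highest untreated one. The mean was 56.1 ± 18.9 CPM in LPS livers and 1.38 ± 0.533 CPM in untreated livers (SD, n = 3 each), a log2 fold change of 5.34 (SE 0.38), or 40.6-fold (adjusted p = 1.71e-05, edgeR). Non-coding genes annotated on the other strand overlap Selp, Gm16587 with 4 to 19 counts and Gm16548 with 34 to 107 counts per liver library, and the sources used here do not say whether the counting used strand. Platelet markers moved with Selp: 5 of the 6 tested from a list of 12 rose and 0 fell (8 rose with no filter on low counts), and their summed level was 37.6, 31.2 and 26.5 CPM in LPS livers, against 13.1, 9.83 and 11.8 CPM in untreated livers. Most of the platelet marker sum came from Itga2b and Itgb3. Gp1ba had 0.313, 0.388 and 0.570 CPM in LPS livers and 0.410, 0.649 and 0.999 CPM in untreated livers. The list is not confined to platelets, since Pf4 had 2126 to 3758 CPM in the LPS-treated macrophages, where Selp had 9.45 to 161 CPM. The part of platelets or of macrophages in the Selp result was not tested.

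Icam1 encodes the endothelial ligand of the integrins LFA-1 and Mac-1 (chr9:21015985-21028817, plus strand, ENSMUSG00000037405). It was the most abundant of the 9 in LPS livers, with 369.5, 199.8 and 274 CPM, against 12.1, 10.8 and 6.95 CPM in untreated livers. These groups lay far apart. The mean was 281 ± 85.1 CPM in LPS livers and 9.92 ± 2.66 CPM in untreated livers (SD, n = 3 each), a log2 fold change of 4.82 (SE 0.34), or 28.3-fold (adjusted p = 1.56e-05, edgeR).

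Vcam1 encodes the ligand of the integrin VLA-4 on monocytes and lymphocytes (chr3:116109949-116129688, minus strand, ENSMUSG00000027962). It had 280.4, 168 and 151 CPM in LPS livers, against 14.0, 12.004 and 17.9 CPM in untreated livers. Here too no LPS library came near the untreated range. The mean was 199.8 ± 70.3 CPM in LPS livers and 14.6 ± 3.00 CPM in untreated livers (SD, n = 3 each), a log2 fold change of 3.77 (SE 0.31), or 13.7-fold (adjusted p = 3.42e-05, edgeR). Antisense genes annotated over Icam1, Vcam1, Cdh5 and Cd34 had at most 2 counts in any liver library.

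Icam2, a ligand of LFA-1 that resting endothelium and platelets carry, did not follow Icam1 (chr11:106377656-106388075, minus strand, ENSMUSG00000001029). It had 5.45, 2.39 and 2.21 CPM in LPS livers, against 1.502, 2.18 and 3.60 CPM in untreated livers. The ranges overlapped, and LPS replicate 1 alone lay above the untreated libraries. The log2 fold change was 0.46 (SE 0.46, adjusted p = 0.438, edgeR), and -0.06 without LPS replicate 1 (adjusted p = 0.918). Within a library, the ratio of Icam1 to Icam2 counts does not depend on scaling. It was 4.38 higher on the log2 scale in LPS than in untreated livers, and every LPS library lay above every untreated one (exact permutation test, 2-sided, p = 0.1, the smallest that 3 against 3 libraries allow).

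The junction genes Cdh5 and Esam both rose. Cdh5 encodes VE-cadherin, the main adhesion protein of endothelial junctions (chr8:104101625-104144511, plus strand, ENSMUSG00000031871). It had 38.8, 32.2 and 34.7 CPM in LPS livers, against 18.0, 13.2 and 20.4 CPM in untreated livers. All LPS libraries lay above all untreated ones. The mean was 35.2 ± 3.34 CPM in LPS livers and 17.2 ± 3.69 CPM in untreated livers (SD, n = 3 each), a log2 fold change of 1.03 (SE 0.20), or 2.05-fold (adjusted p = 0.00378, edgeR). With library totals alone it was 0.60 and not called (adjusted p = 0.0562).

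Esam encodes an immunoglobulin-family protein of endothelial tight junctions that platelets also carry (chr9:37528078-37538319, plus strand, ENSMUSG00000001946). It had 20.4, 12.8 and 13.5 CPM in LPS livers, against 7.33, 5.65 and 7.95 CPM in untreated livers. These groups did not overlap either. The mean was 15.5 ± 4.20 CPM in LPS livers and 6.98 ± 1.19 CPM in untreated livers (SD, n = 3 each), a log2 fold change of 1.15 (SE 0.25), or 2.22-fold (adjusted p = 0.00569, edgeR). With library totals alone it was 0.72 and not called (adjusted p = 0.0527).

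Pecam1, the CD31 protein of endothelial contacts and platelets, had the opposite sign to Cdh5 and Esam (chr11:106654217-106750628, minus strand, ENSMUSG00000020717). It had 11.7, 6.44 and 5.57 CPM in LPS livers, against 14.9, 8.57 and 17.1 CPM in untreated livers. The groups overlapped, since LPS replicate 1 lay above untreated replicate 2. The mean was 7.89 ± 3.30 CPM in LPS livers and 13.5 ± 4.43 CPM in untreated livers (SD, n = 3 each), a log2 fold change of -0.78 (SE 0.35) that was not called (adjusted p = 0.0968, edgeR). It was called lower with library totals alone (-1.22, adjusted p = 0.0259), with no filter on low counts (-0.79, adjusted p = 0.0424), without LPS replicate 1 (-1.15, adjusted p = 0.0293) and without untreated replicate 2 (-1.05, adjusted p = 0.0398).

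Cd34, a sialomucin of capillary endothelium and blood progenitors that can carry selectin ligands, was the least abundant of the 9 in LPS livers (chr1:194938819-194961279, plus strand, ENSMUSG00000016494). It had 56, 5 and 4 counts in LPS livers, or 3.51, 0.277 and 0.253 CPM, against 31, 14 and 39 counts, or 1.41, 0.649 and 1.69 CPM, in untreated livers. LPS replicate 1 was the highest of the 6 libraries and the other LPS libraries were the lowest. The log2 fold change was 0.09 (SE 0.89, adjusted p = 0.943, edgeR), but -0.33 with library totals alone (adjusted p = 0.776) and -2.20 without LPS replicate 1, when it was called lower (adjusted p = 0.0287). The direction for Cd34 changed with that library.

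**Figure D2:**
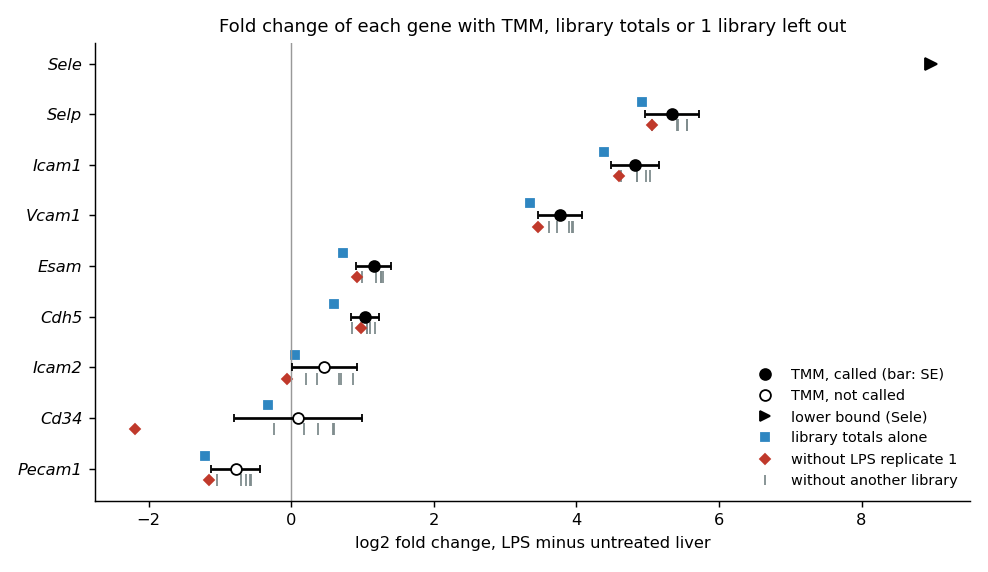
Log2 fold change of each gene, LPS minus untreated liver. Circles with bars are the value with TMM scaling and its SE, filled where the adjusted p was under 0.05. The other marks show library totals and each library left out. Selp, Icam1 and Vcam1 stay between 3.46 and 5.56 with any 1 library left out, Cdh5 and Esam between 0.85 and 1.29, and Cd34 moves between -2.20 and 0.59. Sele is drawn at its lower bound of 8.97.

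The order of the 9 genes by level differed between LPS and untreated livers. Levels between genes were compared as CPM per kilobase of exon. In LPS livers Icam1 led with 64.5 ± 19.5, followed by Vcam1 with 22.5 ± 7.93, Selp with 12.7 ± 4.29, Cdh5 with 8.39 ± 0.795, Sele with 7.76 ± 3.68, Esam with 5.42 ± 1.47, Icam2 with 1.76 ± 0.958, Pecam1 with 1.27 ± 0.529 and Cd34 with 0.185 ± 0.257 (CPM per kilobase, SD, n = 3). Only the neighbours Icam1 and Vcam1, Esam and Icam2, and Pecam1 and Cd34 had ranges that did not overlap. In untreated livers Cdh5 led with 4.09 ± 0.878, followed by Esam with 2.43 ± 0.413, Icam1 with 2.28 ± 0.609, Pecam1 with 2.17 ± 0.711, Vcam1 with 1.65 ± 0.338, Icam2 with 1.28 ± 0.564, Selp with 0.312 ± 0.121, Cd34 with 0.172 ± 0.0741 and Sele with 0 counts. There, the ranges of neighbours from Esam down to Icam2 overlapped, and those of Cdh5 and Esam, Icam2 and Selp, and Cd34 and Sele did not overlap.

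Summed over the 9 genes, the level was 167, 93.6 and 113 CPM per kilobase in LPS livers, against 14.9, 11.9 and 16.3 in untreated livers. Icam1 made up 50.6%, 49.0% and 55.8% of that sum in LPS livers, against 18.6%, 20.6% and 9.78% in untreated livers. The 3 junction genes shrank as a share. Cdh5 made up 5.52%, 8.18% and 7.35% in LPS livers, against 28.8%, 26.2% and 29.8% in untreated livers. Esam made up 4.25%, 4.76% and 4.18% in LPS livers, against 17.1%, 16.5% and 17.0% in untreated livers. Pecam1 made up 1.12%, 1.10% and 0.795% in LPS livers, against 16.0%, 11.5% and 16.9% in untreated livers. The shares of Cdh5 and Esam were smaller although their levels rose.

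**Figure D3:**
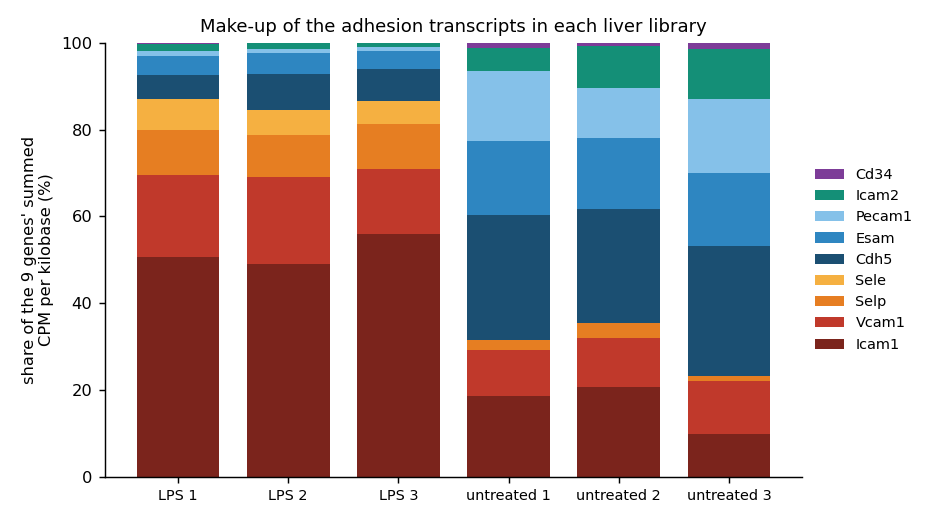
Share of each gene in the summed CPM per kilobase of the 9 adhesion genes, 1 stacked bar for each liver library. Icam1 takes 49.0% to 55.8% of the bar in LPS livers and 9.78% to 20.6% in untreated livers, where Cdh5, with 26.2% to 29.8%, is the widest band.

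Ratios to Cdh5 within a library, which do not depend on scaling, differed from gene to gene. They are log2 ratios of counts plus 0.5, and 9 ratios were compared by an exact permutation test, which cannot fall under p = 0.1 with 3 libraries in each group. The ratio of Esam to Cdh5 was -1.21 ± 0.243 in LPS livers and -1.29 ± 0.0716 in untreated livers, a difference of 0.08, smaller than the spread among LPS libraries (exact permutation test, 2-sided, p = 0.9). Pecam1 stood at -2.23 ± 0.458 in LPS livers and -0.38 ± 0.204 in untreated livers, a difference of -1.85 with no overlap (exact permutation test, p = 0.1). The ratios of Selp, Icam1 and Vcam1 to Cdh5 were higher in LPS livers by 4.30, 3.76 and 2.68, with no overlap and p = 0.1 each in the exact permutation test. That of Sele did not overlap either (p = 0.1, exact permutation test), but with 0 Sele counts in untreated livers its size is set by the added count, at 8.82 with 0.5 added and 7.82 with 1. Those of Icam2 and Cd34 differed by -0.62 and -1.86, with overlap (exact permutation test, p = 0.2 and 0.4).

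Across the 6 liver libraries, the levels of 12562 genes with a mean of at least 1 CPM were set beside each member by Pearson's r of log2(CPM + 0.5), as a description, since the libraries share 2 groups and their depth. Icam1 and Selp were among each other's 2 nearest genes (r = 0.999), and the others were Tnip1 for Icam1 and Mx2 for Selp. Sele stood nearest to Birc2 and Timp1, and Vcam1 to Mob3c and Ctla2a. For each of these 4 members over 1000 genes passed r = 0.95, 1350 of them for Icam1. Pecam1 had 46 such genes, and its nearest were Plxnd1 (r = 0.999) and Emcn (r = 0.998), both endothelial genes. Esam stood nearest to Col4a2 (r = 0.998), a basement membrane collagen, and Aste1 (r = 0.997), Cdh5 to Ell and Rnf14, Icam2 to Tmc4 and Pola2, and Cd34 to Col5a2 (r = 0.994) and Ercc5 (r = 0.988).

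Most genes of a TNF, IL-1, toll-like receptor 4 and NF-kB list rose. Of 20 genes, 17 rose and 1 fell, at a median log2 fold change of 3.03 (14 rose and 1 fell with library totals alone). The list holds cytokines and receptors as well as feedback genes, and its part in the adhesion results was not tested. Tlr4 had 1.94, 1.72 and 1.84 CPM in LPS livers, against 2.55, 1.25 and 1.39 CPM in untreated livers. Tnf, the cytokine that induces Sele, had 28.3 ± 4.33 CPM in LPS livers and 0.0907 ± 0.0928 CPM, or 6 counts in all, in untreated livers (SD, n = 3 each; log2 fold change 8.19). Tnfaip3, which encodes the feedback inhibitor A20, had 389 ± 144 CPM in LPS livers and 2.57 ± 0.538 CPM in untreated livers (log2 fold change 7.24). Atf2, a transcription factor that binds the Sele promoter in human cells, was the gene that fell, with 15.2 ± 1.03 CPM in LPS livers and 22.2 ± 1.21 CPM in untreated livers (log2 fold change -0.55, adjusted p = 0.0224, edgeR). That call was lost with no filter on low counts (18 of the list rose and 0 fell) and without LPS replicate 2 or 3 (17 rose and 0 fell in each case).

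A list of 20 integrins, selectin ligands and ligand-making enzymes covered the leukocyte partners of these molecules. Of the 18 tested, 8 rose and 3 fell (6 and 4 with library totals alone), the median log2 fold change being 0.48. These are levels in whole liver, and whether leukocytes or other cells made the transcripts was not tested. The largest rises were in Cd44, a hyaluronan receptor that can bind E-selectin, with 42.9 ± 1.41 CPM in LPS livers and 8.16 ± 0.606 CPM in untreated livers (log2 fold change 2.39), and in the galactosyltransferase gene B4galt1, with 194 ± 27.0 and 41.6 ± 31.1 CPM in LPS and untreated livers (log2 fold change 2.22). The falls were led by Spn, the leukocyte sialomucin CD43 (log2 fold change -1.76), and Glg1, an E-selectin ligand protein (log2 fold change -1.04). Among the integrins that bind the members, named here for that role, Itgam rose by 2.08 and Itga4 by 1.26 on the log2 scale, while Itgb1, the partner of Itga4 in VLA-4, fell by 0.69 (adjusted p = 0.0171, edgeR). Itgb1 had 84.5, 111 and 111 CPM in LPS livers, against 165, 164 and 164 CPM in untreated livers. Itgb7, another partner of Itga4, was not called (-0.83, adjusted p = 0.114), but was called lower with library totals alone (-1.25, adjusted p = 0.0292). Itgal, the LFA-1 subunit, rose by 0.81 (adjusted p = 0.0166, edgeR), which was lost with library totals alone (0.37, adjusted p = 0.226). Itgb2, the subunit that pairs with both Itgal and Itgam, was not called (0.51, adjusted p = 0.132, edgeR), nor was the P-selectin ligand Selplg (0.41, adjusted p = 0.286).

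Other adhesion and junction genes moved in both directions, as did all genes tested (23.3% called higher and 22.1% lower). Among 18 other adhesion genes, 11 were tested, of which 3 rose and 1 fell (3 and 2 with library totals alone), the median log2 fold change being 0.25. Cd93, an endothelial C-type lectin-like receptor, rose by 1.71 and F11r, the junctional adhesion molecule A, by 1.32 on the log2 scale, and Cd99l2, a protein of leukocyte passage, fell by 0.69. Among 17 junction partners, 2 rose and 5 fell (1 and 9 with library totals alone), with a median of -0.34. Rap1b, a small GTPase that strengthens cadherin junctions, rose by 1.25, while the p120-catenin gene Ctnnd1, which holds cadherins at the membrane, rose by 0.51 (adjusted p = 0.0407, edgeR), a call lost with library totals alone (0.08, adjusted p = 0.721). Ocln, a tight junction protein of epithelium and endothelium, fell by 2.39 and Vcl, vinculin, by 2.19. Of 10 enzymes and inhibitors of adhesion molecule shedding, 6 rose and 1 fell (4 and 1 with library totals alone), with a median of 1.01. Adam8, a leukocyte protease, rose by 3.45, and Adam10, which cleaves VE-cadherin, fell by 0.93. Timp1, a metalloprotease inhibitor, rose by 8.07, with 47.6, 21.9 and 20.2 CPM in LPS livers. Its untreated levels of 0.137, 0.0927 and 0.0868 CPM were so near 0 that the size of this rise is uncertain.

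More endothelial identity genes fell than rose. Of 25 such genes, 3 rose and 11 fell (2 and 12 with library totals alone), the median log2 fold change being -0.34. Their summed level was 269, 192 and 202 CPM in LPS livers, against 283, 215 and 287 CPM in untreated livers. Kdr, the VEGF receptor of endothelium, had 4.27 ± 0.140 CPM in LPS livers and 31.7 ± 9.45 CPM in untreated livers (SD, n = 3 each; log2 fold change -2.89, SE 0.25, adjusted p = 5.15e-05, edgeR). Sox18, a transcription factor of endothelium, fell (adjusted p = 0.000576, edgeR), with 0, 0.166 and 0 CPM in LPS livers, against 2.73, 2.41 and 4.26 CPM in untreated livers, and is given without a fold because the LPS libraries held 3 counts or fewer each. Robo4, an endothelial guidance receptor, rose by 1.66 and Klf2, a flow-induced transcription factor, by 1.22 on the log2 scale.

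Of 10 sinusoidal endothelial markers, 2 rose and 5 fell (1 and 8 with library totals alone, 1 and 3 without LPS replicate 2), with a median of -0.53. Lyve1, a hyaluronan receptor, rose by 1.97 and Stab2, a scavenger receptor, by 0.73, although the Stab2 call was lost with library totals alone (0.28, adjusted p = 0.392). The transcription factor gene Maf fell by 1.54 and the Fc receptor gene Fcgr2b by 1.45. Both are also read in the LPS-treated macrophages, Maf at 27.0 to 431 CPM and Fcgr2b at 859 to 1441 CPM. Lyve1 and Stab2 had at most 0.335 and 0.0676 CPM there. The part of macrophages in these falls was not tested. In whole tissue, fewer cells of a type and less RNA per cell cannot be told apart.

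**Figure D4:**
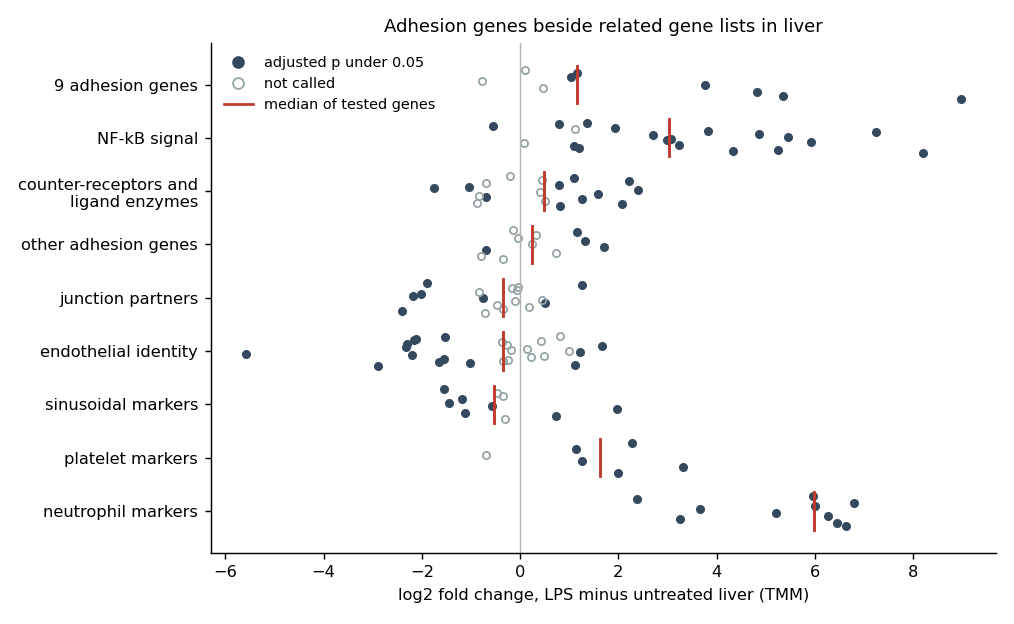
Log2 fold change, LPS minus untreated liver, of every tested gene of the 9 adhesion genes and 8 related lists. Filled points passed an adjusted p of 0.05 and red lines are medians. The medians run from -0.53 for sinusoidal markers to 5.99 for neutrophil markers, with 1.15 for the adhesion genes, where Sele is drawn at its bound. Some neutrophil markers were near 0 in untreated livers.

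Markers of blood cells moved in the same libraries, where 23.3% of all genes tested were called higher and 22.1% lower. Of 12 neutrophil markers, 10 were tested and all 10 rose, with a median log2 fold change of 5.99. The 12 summed to 251, 318 and 227 CPM in LPS livers, against 3.14, 4.63 and 8.73 CPM in untreated livers, where Ly6g was at 0. Ngp, Camp and Stfa2l1 had at most 0.185, 0.0868 and 0.0434 CPM in any untreated library. Retnlg, Cxcr2 and Mmp8 were also low there, at no more than 0.347, 0.347 and 0.174 CPM. All of these passed the filter on low counts through LPS livers alone, so a rise was the only direction they could show. The median depends in large part on such near-zero levels. Of 11 monocyte and macrophage markers, 3 rose and 3 fell (3 and 6 with library totals alone). Their sum was 367, 553 and 591 CPM in LPS livers, against 221, 219.8 and 205 CPM in untreated livers. The rise of this sum came from Cd14, which is also on the NF-kB list, with 263, 373 and 428 CPM in LPS livers. In untreated livers Cd14 had 6.92, 4.17 and 6.43 CPM. Kupffer cell markers gave 3 rises and 0 falls of 10 (3 and 2 with library totals alone). Of 12 tested T and NK cell markers 4 rose, and 2 with library totals alone, with a filter of 1 CPM in 3 libraries, or without LPS replicate 1, untreated replicate 1 or untreated replicate 3. Of 7 tested B cell markers 1 fell, and 2 with library totals alone, with no filter, or without LPS replicate 1 or 3 or untreated replicate 1 or 3. Stellate, fibroblast and mesothelial markers gave 1 rise and 2 falls of 13 tested (0 and 4 with library totals alone, 1 and 4 with no filter, 0 and 5 without LPS replicate 1), with sums of 596, 388 and 329 CPM in LPS livers, against 465, 425 and 372 CPM in untreated livers. Hepatocyte markers gave 1 rise and 1 fall of 10 (0 and 4 with library totals alone, 0 and 0 without LPS replicate 1 or 2, 0 and 1 with no filter or without LPS replicate 3 or untreated replicate 1). Cholangiocyte markers gave 1 rise and 1 fall of 7 tested (4 and 1 without untreated replicate 3, 1 and 0 without untreated replicate 1 or 2). Of 6 tested erythroid markers 5 rose. LPS replicate 1, the highest library for the adhesion genes, was also the highest of the LPS libraries for the endothelial, sinusoidal, platelet, stellate, T and NK cell and B cell sums. It was the lowest of them for the monocyte and macrophage sum, the hepatocyte sum (64123 CPM against 81260 and 99295) and the Kupffer cell sum (499 CPM against 799 and 593). The part of these cells in the adhesion results was not tested.

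In LPS-treated macrophages, the hairpin against Gm26917 was set against the control hairpin, with Icam1, Icam2 and Vcam1 as the members chosen for testing. The same fit also covered Selp, Pecam1 and Cdh5. Of these, Cdh5 was called lower (log2 fold change -2.55, adjusted p = 0.0271, edgeR), at 17, 5 and 3 counts in shGm26917 libraries. Whether that call depends on single libraries is not given here. Icam1 rose and Vcam1 fell in shGm26917 macrophages, and Icam2 was not called. Of 12876 genes tested, 23.7% were called, 12.6% higher and 11.1% lower, and 30.5%, 24.3% higher and 6.17% lower, with library totals alone. The row of Gm26917 itself was not analysed here in macrophages, so the knockdown could not be checked. Endothelial markers were low: Cdh5 had 0.170 to 0.865 CPM in shGm26917 and 1.76 to 3.45 CPM in shNC macrophages, 4 of 25 endothelial identity genes (Erg, Robo4, Gpihbp1 and Ecscr) were at 0 in all 6 libraries, and the list summed to 192, 239 and 188 CPM in shGm26917 and 161, 414 and 188 CPM in shNC macrophages. Most of that sum came from Eng, Fli1, Klf2 and Lyl1, which blood cells also express. The 11 monocyte and macrophage markers summed to 17819, 26678 and 22396 CPM in shGm26917 and 19137, 12310.2 and 20788 CPM in shNC macrophages.

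Icam1 had 236, 233 and 252 CPM in shGm26917 macrophages, against 135, 159 and 99.9 CPM in shNC macrophages. The groups did not overlap, as for 45.9% of all genes tested (24.2% of all genes higher and 21.7% of all genes lower in shGm26917 macrophages). The mean was 240.3 ± 10.03 CPM in shGm26917 and 131 ± 29.9 CPM in shNC macrophages (SD, n = 3 each), a log2 fold change of 0.87 (SE 0.18), or 1.83-fold (adjusted p = 0.0191, edgeR). It was 1.02 without shNC replicate 2 (adjusted p = 0.00161), and the call was lost without shNC replicate 1 (0.87, adjusted p = 0.0533) or without shGm26917 replicate 1, 2 or 3 (adjusted p = 0.0638, 0.0701 and 0.0765).

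Vcam1 had 12, 5 and 5 counts in shGm26917 macrophages, or 0.611, 0.274 and 0.283 CPM, against 31, 142 and 58 counts, or 2.08, 9.60 and 3.92 CPM, in shNC macrophages. Every shNC library lay above every shGm26917 library, and shNC replicate 2 was the highest. The mean was 0.389 ± 0.192 CPM in shGm26917 and 5.20 ± 3.92 CPM in shNC macrophages (SD, n = 3 each), a log2 fold change of -3.70 (SE 0.69), 13.0-fold lower (adjusted p = 0.0133, edgeR). Without shNC replicate 2 it was -2.92 (adjusted p = 0.00299), and the call was lost without shGm26917 replicate 2 (-3.50, adjusted p = 0.0652) or 3 (-3.52, adjusted p = 0.0656). Even in shNC macrophages the level per kilobase, 0.586 ± 0.442 CPM, was small beside 30.1 ± 6.86 CPM per kilobase for Icam1.

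Icam2 had 45.4, 40.0 and 34.3 CPM in shGm26917 macrophages, against 89.2, 42.5 and 181 CPM in shNC macrophages. shNC replicate 2 lay within the shGm26917 range. The mean was 39.9 ± 5.53 CPM in shGm26917 and 104 ± 70.4 CPM in shNC macrophages (SD, n = 3 each), a log2 fold change of -1.38 (SE 0.48) that was not called (adjusted p = 0.0791, edgeR). It was called lower with DESeq2 (-1.41, adjusted p = 0.0139) and without shNC replicate 2 (-1.78, adjusted p = 0.0019), and without shNC replicate 3 it was -0.73 (adjusted p = 0.177). Per kilobase, Icam2 had 21.0 ± 2.90 CPM in shGm26917 and 54.7 ± 37.0 CPM in shNC macrophages, against 55.1 ± 2.30 CPM in shGm26917 macrophages for Icam1, below which it lay without overlap, while the ranges of both genes overlapped in shNC macrophages.

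Apart from the Cdh5 call above, the other members are given in macrophages by level only. Selp had 48.5, 161 and 60.4 CPM in shGm26917 macrophages, against 9.45, 161 and 18.3 CPM in shNC macrophages, so that replicate 2 of both groups stood above the rest. Pecam1 had 4.43, 3.67 and 2.04 CPM in shGm26917 macrophages, against 4.96, 15.5 and 3.17 CPM in shNC macrophages. Sele had 0 counts in the 3 shGm26917 libraries, where 3 counts would be 0.153, 0.164 and 0.170 CPM, and 4, 11 and 7 counts in the shNC libraries. Esam had 1 to 8 counts in shGm26917 and 4 to 22 counts in shNC macrophages, and Cd34 had 0 to 3 counts in both. Sele, Esam and Cd34 did not pass the filter on low counts.

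**Figure D5:**
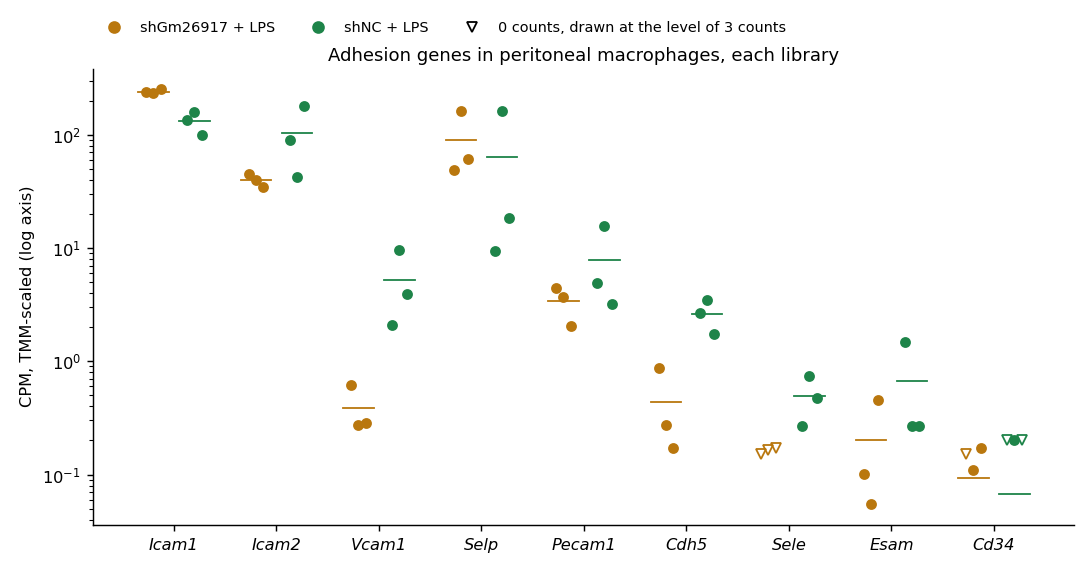
Level of the 9 adhesion genes in each LPS-treated macrophage library, in TMM-scaled CPM on a log axis. Points are libraries, lines are group means, and open triangles mark 0 counts drawn at the level of 3 counts. Icam1 is higher in all 3 shGm26917 libraries, at 233 to 252 CPM, than in the shNC libraries, at 99.9 to 159 CPM, while Vcam1 lies at 0.274 to 0.611 CPM in shGm26917 and 2.08 to 9.60 CPM in shNC libraries.

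The rise of Icam1 in shGm26917 macrophages stood beside falls in the upstream list: of the same 20 genes of the TNF, IL-1 and NF-kB signal, 0 rose and 9 fell (1 and 9 with library totals alone), the median log2 fold change being -0.59. Their sum was 6801, 4499 and 5722 CPM in shGm26917 and 35415, 17065 and 49664 CPM in shNC macrophages. Most of the shNC sum came from Il1a, Il1b and Cd14, with 12223, 3911 and 17664 CPM for Il1b alone. Tlr4, which was not called, had 300, 203 and 215 CPM in shGm26917 and 173, 184 and 181 CPM in shNC macrophages. Tnf had 64.5 ± 18.5 CPM in shGm26917 and 255 ± 91.5 CPM in shNC macrophages (SD, n = 3 each; log2 fold change -1.98, adjusted p = 0.011, edgeR), and Tnfaip3 168 ± 29.9 and 1075 ± 189 CPM in shGm26917 and shNC macrophages (log2 fold change -2.68). Of 20 counter-receptor and ligand enzyme genes, 3 rose and 1 fell (5 and 0 with library totals alone). Of all genes tested in macrophages, 12.6% were called higher and 11.1% lower. Among the Icam1-binding integrin genes, Itgb2 rose, with 2268 ± 102 CPM in shGm26917 and 1235 ± 318 CPM in shNC macrophages (log2 fold change 0.88, adjusted p = 0.0363, edgeR), Itgal fell by 0.91 on the log2 scale (adjusted p = 0.0184, edgeR), a call lost with library totals alone (-0.62, adjusted p = 0.0654), and Itgam was not called (0.25, adjusted p = 0.298).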

How the data were processed

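Poly(A) RNA was sequenced in 12 libraries, 3 in each of 4 groups, and groups were taken from the sample titles. The deposited values, 1 table per library, were raw read counts for each Ensembl ID, per the file headers. STAR, featureCounts 1.6.3 and the mm10 build stand in the submitters' processing notes. Not given in the sources used here are the annotation release, the counting parameters, the treatment of multi-mapping reads and the use of strand. The macrophage headers carry the word combined, and what was combined is not given there either. The liver and macrophage tables share 49022 IDs, so each tissue was analysed alone.

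Symbols matched 49326 liver and 55141 macrophage IDs, and the unmatched IDs held at most 0.0184% of a library's counts. Each tissue was fitted in edgeR 4.0.16 (R 4.3.3) with group as the sole factor, filterByExpr at default settings, TMM scaling and the 2-sided quasi-likelihood F test, with Benjamini-Hochberg adjustment over the 13869 liver or 12876 macrophage genes tested. Log2 fold changes are LPS minus untreated liver, or shGm26917 minus shNC, and the SE is the absolute log2 fold change over the square root of F. CPM per kilobase uses the union of GENCODE M21 exons. Alternatives were library totals, relative log expression factors, DESeq2 1.42.0, other filters, a replicate block and each library left out. The script was tested on simulated counts.

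All 9 members were named. From each of 17 lists the called genes with the 2 largest rises and falls in liver were eligible, and for each member the 2 genes nearest by Pearson's r. Integrins, Selplg and the macrophage values of genes already named were added for their role or to set both tissues side by side. The members and lists were chosen with earlier results of these data known.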

Additional observations from a re-analysis of the deposited data

How the results depend on the processing

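In liver, the counts of called genes and of called members stayed within 1.5 times of 6287 and 6 under the alternatives run: with 1 library left out, 4865 to 6227 genes and 6 to 8 members were called. In macrophages, where the members counted were Icam1, Icam2 and Vcam1, the counts depended on single libraries. Against 3049 genes and 2 members, 839 to 5236 genes and 0 to 3 members were called with 1 library left out. The most were called without shNC replicate 2 and the fewest without shGm26917 replicate 2, with fewer samples in each such fit. Relative log expression factors and a filter of 1 CPM in 3 libraries changed no call of these members or of the liver members. Directions changed for Cd34 in liver, whose log2 fold change of 0.09 was -0.33 with library totals alone and -0.57 with the replicate block, and ranged over -2.20 to 0.59 with 1 library left out, and for Icam2 in liver (-0.064 to 0.86 with 1 library left out). The causes were not tested. For the log2 ratio of Sele to Cdh5, counts plus 1 gave 7.82 in place of 8.82, because the untreated livers had 0 Sele counts. Pairing by replicate number was looked for in deviations from the group means. In liver it was not seen: same-numbered libraries correlated at 0.13, 0.07 and -0.08, and differently numbered ones at -0.23 to 0.15. In macrophages same-numbered libraries correlated at -0.06, 0.27 and 0.23, and differently numbered ones at -0.28 to 0.20. For replicates 2 and 3 the same-numbered values were thus the highest, and a pairing in macrophages remains undecided. With the replicate block 3002 genes rose and 2752 fell in liver and 1424 rose and 1170 fell in macrophages. It changed no call of a liver member, or of Icam1, Icam2 or Vcam1 in macrophages. Depth limits Cd34 in liver and Sele, Esam, Cd34, Vcam1 and Cdh5 in macrophages, where some libraries held 5 counts or fewer.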
